A study of Mus musculus with 4 samples.

Results

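The zinc finger gene clusters described here are a pair of windows of the mouse genome, chr2:175000001-178000000 and chr13:66500001-68500000 in build mm8. Their members are the 5 kb bins with at least 1 deposited read line in any of 4 chromatin immunoprecipitation libraries. This gave 509 bins of 501401 such bins on chromosomes 1 to 19, X and Y. The chromosome 2 window held 190 of them, out of 600 bins, and the chromosome 13 window 319 out of 400. The 2 Mb on each side, called the flanks, held 757 bins beside the chromosome 2 window and 688 beside the chromosome 13 window.

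The 4 groups had 1 library each. The secondary MEF H3K9me3 library came from fibroblasts of chimeric mouse embryos at 13.5 dpc. Those embryos were made by injecting BDF2 blastocysts with iPS cells that carry doxycycline-inducible Klf4, Sox2 and Oct4 and an Oct4-selectable cassette, and puromycin (2 µg/ml, 48 hours) was used to select fibroblasts of iPS cell origin. The MEF H3K9me3, MEF H3K27me3 and MEF H3K4me3 libraries came from mouse embryonic fibroblasts in medium with fetal bovine serum, for which the labels give no strain, age or genotype. H3K9me3 was precipitated with 1 lot of antibody in both cell sources. The 3 MEF libraries shared a flow cell and the secondary MEF library was on another, so cell source and flow cell cannot be told apart.

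KRAB zinc finger proteins bind DNA through arrays of zinc fingers, and many of them recruit the co-repressor TRIM28 (KAP1) and the H3K9 methyltransferase SETDB1, often at retrotransposons. Their genes lie in tandem clusters made by repeated duplication, so neighbouring copies are much alike. In several cell types the gene bodies of such clusters are known to carry H3K9me3 while their promoters carry H3K4me3, the mark of active or poised promoters. H3K27me3 is the Polycomb mark and served here as a second repressive mark for comparison.

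Short reads can be placed only where gene copies differ, so promoters named by RefSeq are printed first (GRCm38.p6, 250 bases before to 50 after the gene start, 5′ to 3′). That build differs from mm8, so none was placed on the read map, and whether the mm8 windows hold these genes was not checked. Between Edn3 and Phactr3 on chromosome 2 RefSeq lists 32 protein-coding genes, of which 31 had a promoter in the table. Of these 31 promoters, 25 held 36-base words that occur in at least 2 other promoters of the group. Such words made up 66.1% of all words of the 31 promoters. Between Ptdss1 and Mtrr on chromosome 13 it lists 27 protein-coding genes, of which 24 had a promoter. None of these 24 held a word present in 2 or more others, while 11 held words that occur in exactly 1 other promoter and 13 held no shared word. Only exact matches were counted, while the alignment options allowed up to 2 mismatches in the first 36 bases. Near-identical words are therefore missing from the counts of both chromosomes, which do not measure how many reads can be placed. Capitals mark the bases that lie in a 36-base word shared with another promoter of the same chromosome's group, and lower case marks the rest. Zfp966 and Zfp968 were chosen as chromosome 2 promoters that are shared throughout, Rsl1 and Zfp429 as a chromosome 13 pair with a shared stretch, and Zfp708 as a chromosome 13 promoter with no shared word.
Zfp966 (chromosome 2, minus strand): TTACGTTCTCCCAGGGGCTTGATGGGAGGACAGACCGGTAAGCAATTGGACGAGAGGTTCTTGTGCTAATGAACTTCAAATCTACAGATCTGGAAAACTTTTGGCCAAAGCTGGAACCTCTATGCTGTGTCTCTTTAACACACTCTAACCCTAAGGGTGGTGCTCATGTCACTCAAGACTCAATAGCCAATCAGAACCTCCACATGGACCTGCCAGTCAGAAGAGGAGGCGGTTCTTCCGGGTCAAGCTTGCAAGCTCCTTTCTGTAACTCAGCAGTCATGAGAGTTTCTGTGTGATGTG
Zfp968 (chromosome 2, plus strand): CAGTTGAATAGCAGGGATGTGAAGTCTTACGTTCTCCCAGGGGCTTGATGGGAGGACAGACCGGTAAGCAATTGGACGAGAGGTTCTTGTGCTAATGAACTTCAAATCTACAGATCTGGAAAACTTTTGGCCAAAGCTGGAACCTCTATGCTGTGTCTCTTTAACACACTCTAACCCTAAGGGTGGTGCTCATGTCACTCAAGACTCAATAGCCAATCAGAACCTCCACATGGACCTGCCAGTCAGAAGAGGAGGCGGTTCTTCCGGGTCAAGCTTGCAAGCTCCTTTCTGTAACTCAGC
Rsl1 (chromosome 13, plus strand): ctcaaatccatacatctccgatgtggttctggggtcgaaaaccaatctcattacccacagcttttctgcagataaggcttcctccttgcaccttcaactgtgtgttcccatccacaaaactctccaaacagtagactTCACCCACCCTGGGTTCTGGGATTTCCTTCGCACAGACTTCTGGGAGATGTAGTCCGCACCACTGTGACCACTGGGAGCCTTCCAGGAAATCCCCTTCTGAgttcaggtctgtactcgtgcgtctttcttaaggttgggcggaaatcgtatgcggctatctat
Zfp429 (chromosome 13, minus strand): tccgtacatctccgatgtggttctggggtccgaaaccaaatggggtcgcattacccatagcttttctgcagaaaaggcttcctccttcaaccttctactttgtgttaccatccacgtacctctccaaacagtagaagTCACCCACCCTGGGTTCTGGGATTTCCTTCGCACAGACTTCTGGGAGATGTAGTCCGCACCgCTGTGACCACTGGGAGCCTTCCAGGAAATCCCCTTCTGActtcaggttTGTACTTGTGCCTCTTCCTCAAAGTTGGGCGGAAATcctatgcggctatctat
Zfp708 (chromosome 13, minus strand): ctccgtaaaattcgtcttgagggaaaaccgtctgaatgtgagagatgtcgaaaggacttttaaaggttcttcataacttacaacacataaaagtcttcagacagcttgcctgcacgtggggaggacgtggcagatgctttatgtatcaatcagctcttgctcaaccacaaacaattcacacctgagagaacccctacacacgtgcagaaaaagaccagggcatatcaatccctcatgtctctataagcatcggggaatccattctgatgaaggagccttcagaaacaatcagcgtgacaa

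All 300 bases of Zfp966 and Zfp968 lay in shared words, and every one of the 265 words of Zfp966 was also in Zfp967. In Rsl1, which in mouse represses sex-limited liver genes, 101 bases lay in shared words, and 30 of its 50 shared words were in Zfp429. Zfp429 had 136 such bases. Zfp708, which in mouse binds a retrotransposon family, had 0. The alignment options kept a read only with 1 or 2 locations. The part of these shared words in the read counts was not tested.

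The deposited read lines were of 2 kinds. A read with a single location in mm8 is listed once and is called a single-location read. A read with 2 locations is listed at both, and each listing is called a two-location line. A read with more locations is in neither list. The libraries held 7985901 (secondary MEF H3K9me3), 8912337 (MEF H3K9me3), 9782554 (MEF H3K27me3) and 12244567 (MEF H3K4me3) single-location reads, with two-location lines at 4.42% to 6.60% of all lines. Levels are given as a fold, the single-location reads of the bins divided by the library's own mean, which was 16.1 to 24.7 reads per 5 kb bin. With 1 library per group no value has a replicate check. Intervals are at the 95% level and cover counting error only.

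Single-location reads were few in both windows and almost absent in the chromosome 2 window. There, 410 of 600 bins had no line of any kind, 94 had two-location lines only and 96 had a single-location read. Only 2 bins reached 20 single-location reads over the 4 libraries, a minimum that defines a readable bin here, against 696 of the 800 flanking bins. From 175250001 to 176000000 no library had any line. In the chromosome 13 window 81 of 400 bins had no line, 69 had two-location lines only and 250 had a single-location read. Of these, 163 were readable, and 162 of the 163 lay between 67250001 and 68500000. The chromosome 13 flanks had 400 readable bins of 800, and the 1 Mb directly left of the window held none.

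**Figure D1:**
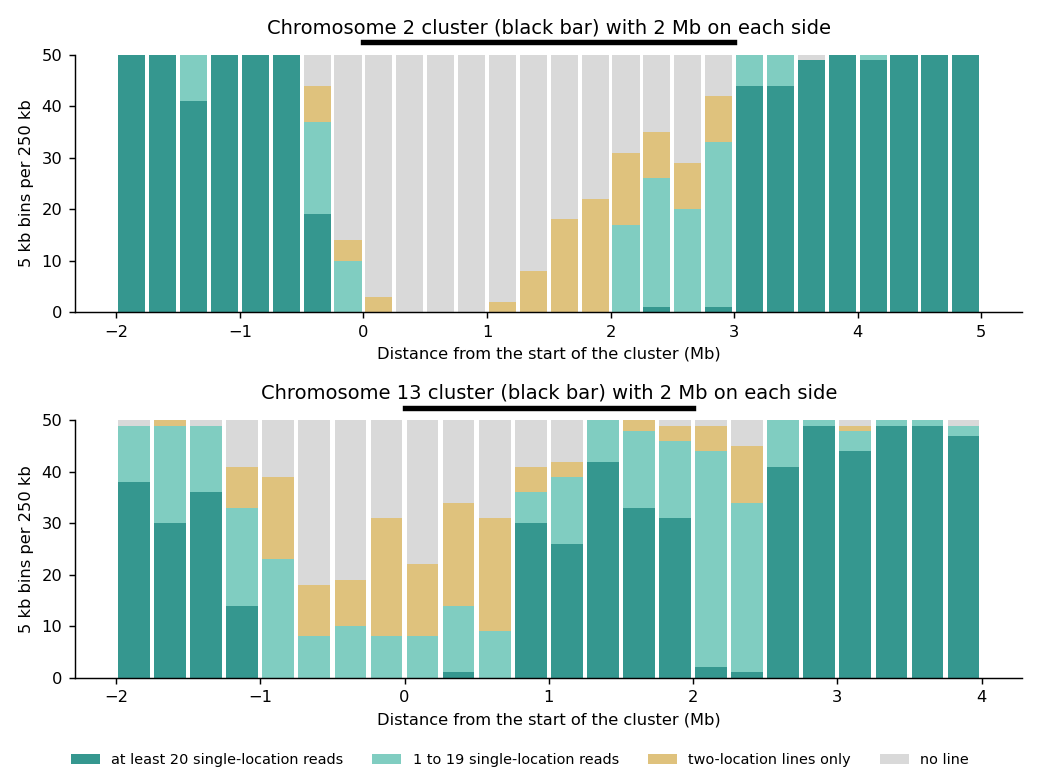
Bars show how many of the 50 bins of 5 kb in each 250 kb were readable (at least 20 single-location reads over the 4 libraries), had 1 to 19 such reads, had two-location lines only, or had no line, against distance from the start of each cluster in Mb. The chromosome 2 cluster holds 2 readable bins, and the chromosome 13 cluster holds 163, nearly all in its right part.

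In the chromosome 2 window all 4 marks were read at a few percent of the genome mean. The secondary MEF H3K9me3 library had 92 single-location reads there, the MEF H3K9me3 library 88, the MEF H3K27me3 library 38 and the MEF H3K4me3 library 130. These are folds of 0.0300 (0.0242 to 0.0368), 0.0257 (0.0206 to 0.0317), 0.0101 (0.00716 to 0.0139) and 0.0277 (0.0231 to 0.0328), in the same order. The flanks stood at 1.83 for secondary MEF H3K9me3, 1.54 for MEF H3K9me3, 1.29 for H3K27me3 and 1.03 for H3K4me3. The cluster was thus at 0.0164 of its flanks for secondary MEF H3K9me3, at 0.0167 for MEF H3K9me3, at 0.00782 for H3K27me3 and at 0.0269 for H3K4me3. These low values describe every library alike, and how much of each bin single-location reads can reach in mm8 was not measured. Ratios between libraries compare the same bins.

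Set against H3K27me3 in the same bins, H3K9me3 was higher in both cell sources. The ratio of folds was 2.97 (2.01 to 4.45) for secondary MEF H3K9me3 and 2.54 (1.72 to 3.82) for MEF H3K9me3, against 1.18 (1.15 to 1.21) and 1.11 (1.08 to 1.15) in the left flank and 1.63 (1.59 to 1.67) and 1.26 (1.22 to 1.29) in the right flank. Against H3K4me3 the ratios were 1.09 (0.822 to 1.43) and 0.930 (0.701 to 1.23), so no difference was detectable at this depth. The flanks together were higher, at 1.78 (1.74 to 1.81) and 1.49 (1.46 to 1.52). Over the mean of both other marks the ratio was 1.59 (1.23 to 2.05) in secondary MEF and 1.36 (1.05 to 1.76) in MEF. The flanks together had 1.58 (1.55 to 1.60) and 1.32 (1.30 to 1.35), so the cluster did not stand apart from them in this ratio. In the 2 readable bins of the cluster alone this ratio was 0.0829 and 0.334. These bins reach 20 reads only through H3K4me3 (58 and 16 reads), which fixes the ratio below 1.

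A bin was called for a mark when it had at least 2-fold the library mean and a one-sided Poisson p under 0.001 after Benjamini-Hochberg adjustment over all 494867 bins with a single-location read. Genome-wide this called 9.32% of bins for secondary MEF H3K9me3, 10.3% for MEF H3K9me3, 11.3% for MEF H3K27me3 and 6.27% for MEF H3K4me3. In the chromosome 2 window 0 of 190 bins were called for either H3K9me3 library (0 to 1.92%) or for H3K27me3. Of these 190 bins, 94 had no single-location read and could not be called. In the flanks 40.7% of bins were called for secondary MEF H3K9me3, 20.9% for MEF H3K9me3 and 16.6% for H3K27me3. The single called bin of the window was an H3K4me3 bin, at chr2:177950001-177955000. It had 1 read in secondary MEF H3K9me3, 6 in MEF H3K9me3, 0 in H3K27me3 and 58 in H3K4me3, a 2.34-fold level of that mark. The bin with the most H3K9me3 reads was chr2:177500001-177505000, with 9 reads in secondary MEF H3K9me3 and 8 in MEF H3K9me3, against 2 in H3K27me3 and 0 in H3K4me3. The H3K9me3 levels there were 0.558 times (0.255 to 1.06) the library mean in secondary MEF and 0.444 times (0.192 to 0.875) in MEF. The H3K27me3 level was 0.101 times (0.0123 to 0.365) its mean, so the intervals overlapped. The bin was picked for its H3K9me3 reads, so the order of the marks in it is a description only.

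Most lines of the chromosome 2 window were two-location lines. The secondary MEF H3K9me3 library had 441 of them (82.7% of its lines there), the MEF H3K9me3 library 471 (84.3%), the H3K27me3 library 282 (88.1%) and the H3K4me3 library 231 (64.0%), against 2.57% to 3.60% in the flanks. Per 1000000 single-location reads of the library this was 55.2 lines in secondary MEF H3K9me3 and 52.8 in MEF H3K9me3, against 28.8 in H3K27me3 and 18.9 in H3K4me3. The H3K9me3 libraries therefore carried more two-location lines than the other marks. The ratio to H3K27me3 was 1.92 (1.54 to 2.38) in secondary MEF and 1.83 (1.48 to 2.28) in MEF, and the ratio to H3K4me3 2.93 (2.33 to 3.70) and 2.80 (2.23 to 3.53). Over the whole genome the same ratios were 1.28 and 1.24 to H3K27me3, and 1.53 and 1.49 to H3K4me3. In the flanks they were 1.62 and 1.42 to H3K27me3 and 2.42 and 2.11 to H3K4me3, and the intervals of cluster and flanks overlapped (in the flanks 1.40 to 1.89 and 1.22 to 1.65 to H3K27me3, 2.06 to 2.84 and 1.80 to 2.49 to H3K4me3). These intervals take each pair of lines as 1 read, since a read can have both of its locations inside the window.

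The bins named next had the most two-location lines summed over the 4 libraries, in counts not scaled by library size. The order of the marks in them is a description only. The bin chr2:177095001-177100000 had no single-location read in any library, and 27 two-location lines in secondary MEF H3K9me3 and 21 in MEF H3K9me3, against 14 in H3K27me3 and 8 in H3K4me3. The bin chr2:177330001-177335000, also without a single-location read, had 24 and 16, against 14 and 6. In chr2:177085001-177090000 there were 23 and 16, against 9 and 10, and in chr2:177730001-177735000 15 and 15, against 13 and 6. In chr2:177710001-177715000 there were 6 in secondary MEF H3K9me3 and 15 in MEF H3K9me3, against 8 in H3K27me3 and 8 in H3K4me3. Secondary MEF H3K9me3 was the lowest there.

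The deposited lists do not say which 2 lines belong to 1 read, so partners were sought by position. Among the 1175 distinct two-location positions of the 3 libraries without H3K4me3, 110 pairs on opposite strands mirrored each other about a single axis, holding 18.6% of the positions, and the next axis had 54 pairs. Their arms ran from 176524301 to 176574492 and from 176835598 to 176885789. On the same strand, 28 pairs stood 310194 bp apart, with arms at 177214993 to 177225406 and 177525187 to 177535600, and the next commonest distance had 6 pairs.

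The chromosome 13 window was higher than both flanks in H3K4me3. It had 2434 single-location reads in secondary MEF H3K9me3, 2434 in MEF H3K9me3, 1762 in H3K27me3 and 8518 in H3K4me3. The fold was 0.473 (0.454 to 0.492) for secondary MEF H3K9me3, 0.424 (0.407 to 0.441) for MEF H3K9me3, 0.279 (0.267 to 0.293) for H3K27me3 and 1.08 (1.06 to 1.10) for H3K4me3. In the flanks the folds were 0.691, 0.625, 0.498 and 0.564, in the same order. H3K4me3 was 1.91 times the flanks (1.86 to 1.97), while secondary MEF H3K9me3 was at 0.684 of the flanks (0.653 to 0.716), MEF H3K9me3 at 0.678 (0.647 to 0.709) and H3K27me3 at 0.561 (0.532 to 0.591).

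The direction for H3K9me3 depended on the side taken. Against the left flank the secondary MEF H3K9me3 ratio was 1.19 and the MEF H3K9me3 ratio 1.35, and against the right flank they were 0.519 and 0.493. With flanks of 1 Mb, where 93 of 400 bins were readable, they were 1.23 and 1.16. In readable bins alone they were 0.761 and 0.755 against both 2 Mb flanks together. Against the left flank, readable bins gave 0.975 (0.915 to 1.04) in secondary MEF and 1.12 (1.05 to 1.20) in MEF. Against the right flank they gave 0.697 and 0.664. For secondary MEF, no difference from the left flank was therefore detectable in readable bins. Over all member bins, H3K27me3 also depended on the side, at 1.47 (1.36 to 1.58) times the left flank and 0.382 (0.362 to 0.403) times the right. H3K4me3 was above both sides, at 2.73 times the left flank and 1.56 times the right.

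**Figure D2:**
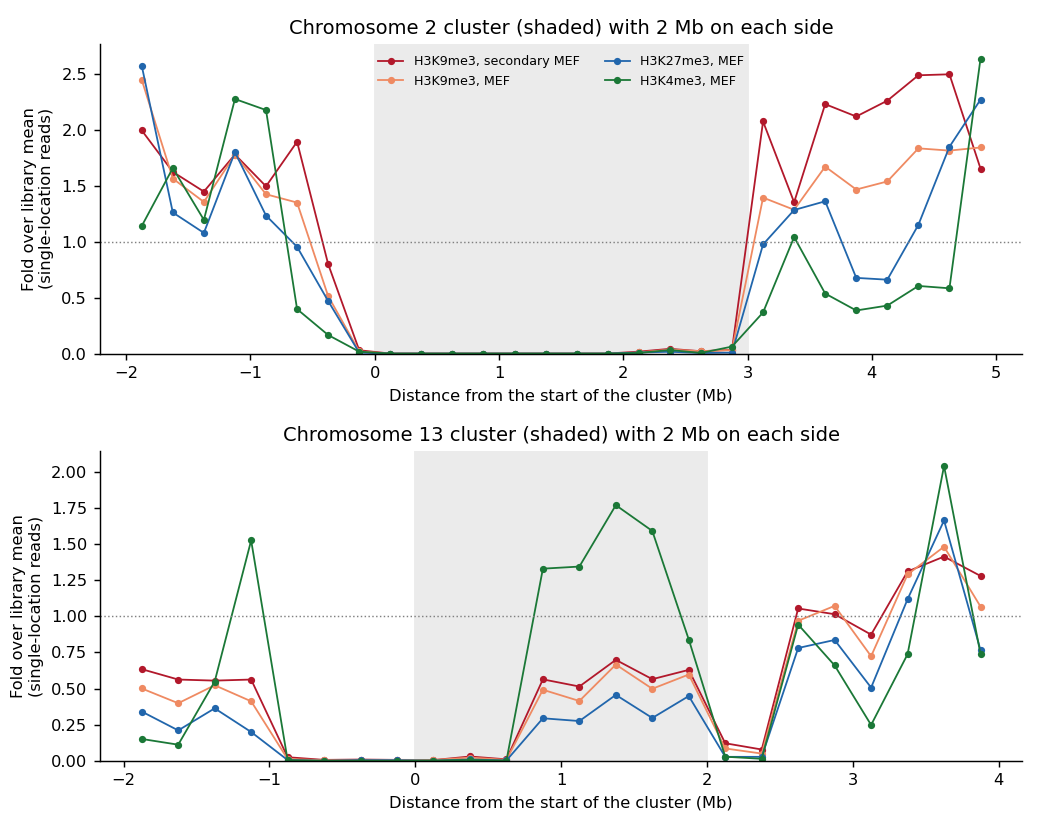
Lines give the fold over the library mean of single-location reads in 250 kb windows (y axis) against distance from the start of each cluster in Mb, with the cluster shaded and the library mean dotted. The chromosome 2 cluster lies near 0 in every library, and in the right part of the chromosome 13 cluster H3K4me3 runs from 0.840 to 1.77 while both H3K9me3 libraries run from 0.414 to 0.699 and H3K27me3 from 0.275 to 0.456.

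Between 67250001 and 68500000 the order of the libraries was the same in each of 5 windows of 250 kb. Secondary MEF H3K9me3 was at 0.514 to 0.699, MEF H3K9me3 at 0.414 to 0.666, H3K27me3 at 0.275 to 0.456 and H3K4me3 at 0.840 to 1.77, all counted over all 50 bins of a window. Over the whole chromosome 13 window H3K9me3 was higher than H3K27me3, by 1.69 times (1.59 to 1.80) in secondary MEF and 1.52 times (1.43 to 1.61) in MEF, against 1.39 (1.34 to 1.43) and 1.25 (1.21 to 1.30) in the flanks together and 1.01 and 1.06 over all of chromosome 13. The sides differed, with 2.09 (1.94 to 2.26) in secondary MEF and 1.65 (1.53 to 1.78) in MEF on the left, and 1.25 (1.20 to 1.29) and 1.18 (1.13 to 1.22) on the right. The cluster was above the right flank in both cell sources, below the left flank in secondary MEF, and overlapped the left flank's interval in MEF. H3K9me3 was lower than H3K4me3, at 0.438 (0.419 to 0.458) in secondary MEF and 0.393 (0.375 to 0.411) in MEF, against 1.23 and 1.11 in the flanks. Over the mean of both other marks the ratio was 0.696 (0.666 to 0.728) in secondary MEF and 0.624 (0.597 to 0.652) in MEF.

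Few bins were called for H3K9me3. In secondary MEF 4 of 319 bins were called (1.25%, 0.343 to 3.18%), in MEF 0 (0 to 1.15%), for H3K27me3 2 (0.627%) and for H3K4me3 32 (10.0%, 6.96 to 13.9%). In the flanks the shares were 2.33%, 2.33%, 2.18% and 3.34%. For both H3K9me3 libraries and H3K27me3 the share was below the genome-wide background, and for H3K4me3 above it. The cluster share includes 69 bins without a single-location read, which cannot be called and which the background leaves out. In the cluster 163 of 319 bins were readable, against 403058 of 501401 genome-wide. The part of readability in these shares was not tested.

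The 4 bins called for secondary MEF H3K9me3 were single bins apart from each other. The bin chr13:67365001-67370000 had 49 reads in secondary MEF H3K9me3 (3.04-fold), 26 in MEF H3K9me3 (1.44-fold), 29 in H3K27me3 (1.47-fold) and 1025 in H3K4me3 (41.4-fold), the highest level of the window in both marks that called it. The other 3 were not called for H3K4me3. In chr13:67990001-67995000 secondary MEF H3K9me3 stood at 2.29-fold and MEF H3K9me3 at 1.22-fold, against 0.607-fold for H3K27me3 and 0.283-fold for H3K4me3. In chr13:67610001-67615000 the folds were 2.23 and 1.11, against 1.21 for H3K27me3 and 0.727 for H3K4me3. In chr13:68365001-68370000 they were 2.17 and 1.67, against 0.911 and 0.283. The highest bin of MEF H3K9me3, chr13:67995001-68000000, reached 1.83-fold, with 1.98-fold in secondary MEF, and was also an H3K4me3 bin at 16.7-fold. The H3K27me3 calls were chr13:67920001-67925000 and chr13:68270001-68275000, both at 2.12-fold.

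The bins ranked by the ratio of H3K9me3 to the other marks had fewer reads than the highest H3K9me3 bins. They were picked for that ratio, so the order of the marks in them is a description only. The bin chr13:67750001-67755000 had 23 reads in secondary MEF H3K9me3 and 25 in MEF H3K9me3, against 6 in H3K27me3 and 7 in H3K4me3. In chr13:67640001-67645000 there were 17 and 17, against 3 and 6, and in chr13:67810001-67815000 21 and 22, against 5 and 9. Of the 163 readable bins, secondary MEF H3K9me3 was at least 2 times the larger of the other marks in 48 (29.4%) and MEF H3K9me3 in 38 (23.3%), against 31.0% and 22.3% of flanking readable bins and a genome-wide background of 15.4% and 11.5%. The cluster's shares were thus above the background and near those of its flanks. Both H3K9me3 libraries were above both other marks in 88 bins (54.0%), against 66.0% of flanking bins and a background of 41.5%. All 88 were among the 131 readable bins not called for H3K4me3. For the 32 called bins the count of 0 was fixed by the call. It needs H3K4me3 at 2-fold or more, and MEF H3K9me3 reached at most 1.83-fold in the readable bins. In the flanks 23 of 400 readable bins were called for H3K4me3.

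H3K4me3 in the chromosome 13 window was a row of narrow peaks. The 32 called bins formed 29 runs of adjacent bins, 26 of them a single bin, with summits 13 to 191 kb apart and a median spacing of 27.5 kb. Those 32 bins held 87.3% of the window's single-location H3K4me3 reads and 85.3% of its two-location H3K4me3 lines. They held 22.1% of the secondary MEF H3K9me3 reads, 19.1% of the MEF H3K9me3 reads and 25.3% of the H3K27me3 reads. The runs ranged from 2.71-fold to 41.4-fold, with a median of 7.68. After chr13:67365001-67370000 the highest bins were chr13:68050001-68055000, at 18.6-fold with 460 reads, and chr13:67605001-67610000, at 16.9-fold with 418 reads.

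Two-location lines were common in these runs. In 17 of the 29 runs they were at least 20% of the H3K4me3 lines, with a median over the runs of 33.8% and a maximum of 75.3%. In the flanks this held for 1 of 6 runs on the left and 0 of 10 on the right. The bin chr13:67980001-67985000 had 23 two-location lines in secondary MEF H3K9me3 and 9 in MEF H3K9me3, against 8 in H3K27me3 and 370 in H3K4me3. In chr13:67950001-67955000 there were 24 and 8, against 6 and 363. Over the window there were 1064 two-location lines in secondary MEF H3K9me3 and 1047 in MEF H3K9me3, against 663 in H3K27me3 and 4004 in H3K4me3. Scaled by each library's single-location reads, H3K9me3 over H3K27me3 was 1.97 (1.71 to 2.26) in secondary MEF and 1.73 (1.51 to 2.00) in MEF, against 2.84 (2.44 to 3.30) and 2.24 (1.92 to 2.61) in the flanks. H3K4me3 over H3K27me3 was 4.82 (4.29 to 5.44), against 1.20 (1.02 to 1.41) in the flanks. Among 5124 tiles of 500 kb, ranked by two-location H3K4me3 lines from the top, the tile from 67500001 to 68000000 was number 21 with 2213 lines and the tile from 68000001 to 68500000 number 28 with 1727.

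**Figure D3:**
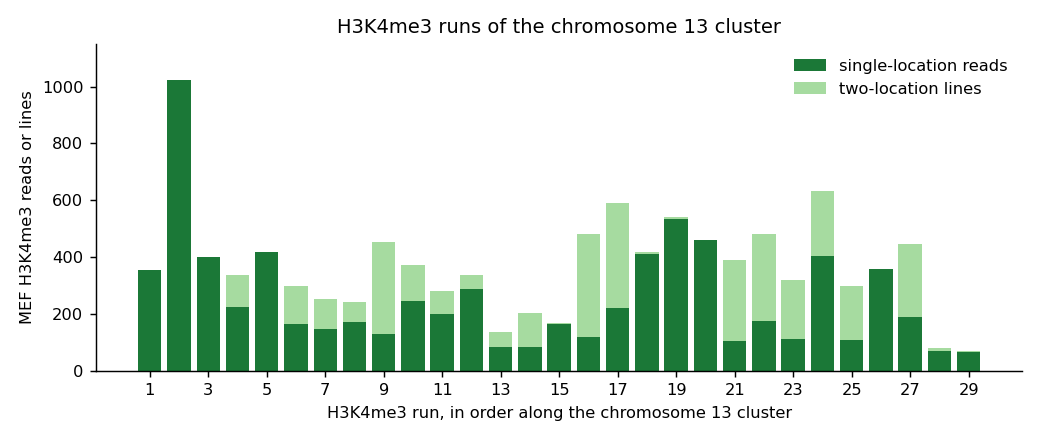
Stacked bars give the single-location reads and two-location lines of the MEF H3K4me3 library (y axis) in each of the 29 runs of the chromosome 13 cluster, numbered in order along the chromosome. Run 2 has 1025 reads and no two-location line, and in 17 runs two-location lines are at least 20% of the bar.

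Some H3K4me3 runs had two-location lines at matching positions. In the bins chr13:67950001-67955000 and chr13:67980001-67985000, 263 lines matched at a distance of 32629 bp on the same strand, which is 72.5% of the lines of the first and 71.1% of the second. Among 91 pairs of the 14 bins with at least 100 such lines, the next highest pair had 103 and the median 36 at its commonest distance or axis. That next pair was chr13:68105001-68110000 with chr13:68135001-68140000, at 28104 bp. The pair chr13:68250001-68255000 and chr13:68310001-68315000 had 97 lines that mirrored each other on opposite strands. The pairs after it had 88 and 87, so only the highest pair stood apart from the rest. A two-location line does not say where its partner lies, so these matches by position are candidates only. It also does not say which location carried the mark.

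H3K9me3 and H3K27me3 were also higher at the H3K4me3 summits than beside them. In the 1 kb at the summits, summed over 29 runs, secondary MEF H3K9me3 was at 2.31-fold (2.01 to 2.64), MEF H3K9me3 at 1.59-fold, H3K27me3 at 1.32-fold and H3K4me3 at 37.8-fold. Beyond 5 kb on either side, secondary MEF H3K9me3 ran between 0.513 and 0.897 and H3K4me3 between 0.167 and 0.300. At the 16 runs of the flanks the summit stood at 4.36, 3.52, 3.83 and 44.2, in the same order. No input library was set against these summit values.

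**Figure D4:**
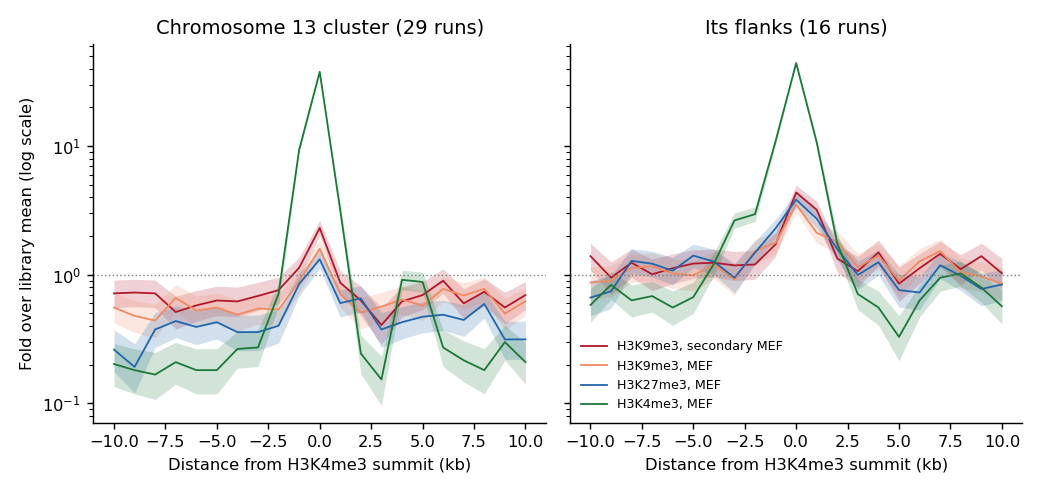
Lines give the fold over the library mean in 1 kb steps (log y axis) against distance from the H3K4me3 summit in kb, summed over the 29 runs of the chromosome 13 cluster (left) and the 16 runs of its flanks (right), with shaded 95% Poisson intervals. Away from the cluster summits both H3K9me3 libraries mostly lie above H3K27me3 and H3K4me3, and at the summit secondary MEF H3K9me3 reaches 2.31-fold.

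The readable bins of the chromosome 13 window were also split by the H3K4me3 call. In the 131 bins not called for H3K4me3 the folds were 0.808 (0.771 to 0.848) for secondary MEF H3K9me3, 0.762 (0.727 to 0.798) for MEF H3K9me3, 0.475 (0.449 to 0.502) for H3K27me3 and 0.309 for H3K4me3. In the 32 called bins they were 1.04 (0.956 to 1.13), 0.809 (0.737 to 0.885), 0.703 (0.640 to 0.772) and 9.39, in the same order. The H3K4me3 values were used for the split and are a description. A called bin can also be readable through H3K4me3 alone. In chr13:68105001-68110000 the reads were 2, 2, 0 and 104, in the same order. The bins not called had to pass mostly on the other marks. The H3K9me3 and H3K27me3 levels of called and other bins are therefore shaped by this filter and cannot be compared. Off the H3K4me3 bins, secondary MEF H3K9me3 was above H3K27me3 in 97 of 131 bins and MEF H3K9me3 in 109, while in the called bins this held in 26 and 19 of 32. Such bins were not counted in the flanks or genome-wide, so these counts do not set the cluster apart. The ratio to H3K27me3 off the H3K4me3 bins was 1.70 (1.58 to 1.83) in secondary MEF and 1.60 (1.49 to 1.73) in MEF. The same ratios were 2.09 (1.92 to 2.28) and 1.70 (1.56 to 1.86) in the left flank, and 1.29 (1.24 to 1.34) and 1.22 (1.18 to 1.27) in the right flank. The cluster therefore lay between its flanks for secondary MEF, while for MEF its interval overlapped that of the left flank. Leaving out all bins called for H3K4me3 brought H3K9me3 over the mean of the other marks to 2.13 in secondary MEF and 1.98 in MEF. That choice removes 87.3% of the window's H3K4me3 reads by construction, so the rise is a description only.

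**Figure D5:**
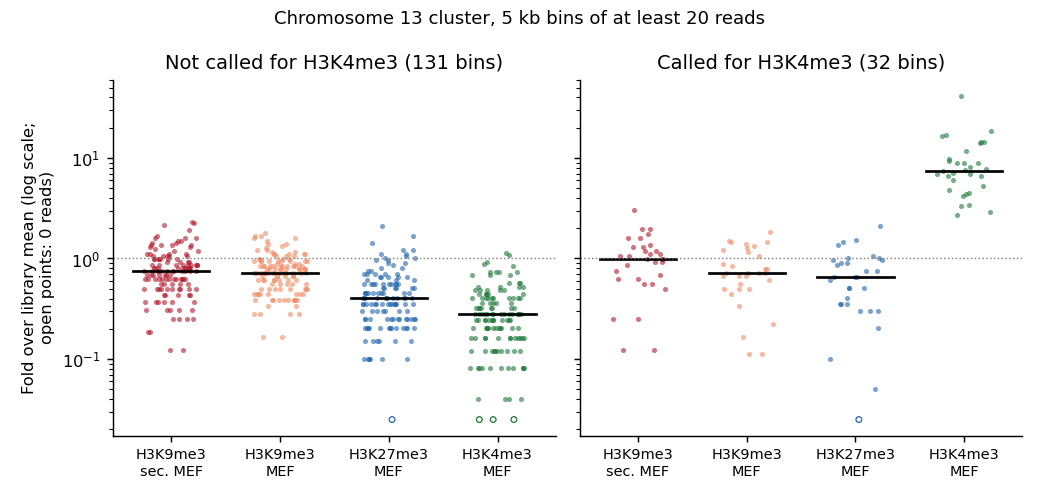
Points are the 163 readable bins of the chromosome 13 cluster, as fold over the library mean (log y axis, open points for 0 reads), split by whether the bin was called for MEF H3K4me3, with black lines at the medians. In the 131 bins not called, the medians are 0.744 for secondary MEF H3K9me3 and 0.722 for MEF H3K9me3, against 0.405 for H3K27me3 and 0.283 for H3K4me3.

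The H3K9me3 libraries of the cell sources differed little. On chromosome 2 the ratio of secondary MEF to MEF was 1.17 (0.862 to 1.58) in the cluster, so a difference was not detectable at this depth, and it was 1.06 (1.03 to 1.09) in the left flank, 1.30 (1.27 to 1.33) in the right flank and 0.973 over the chromosome. On chromosome 13 it was 1.12 (1.05 to 1.18) in the cluster, against 1.27 (1.19 to 1.36) in the left flank, 1.06 (1.02 to 1.10) in the right flank and 0.958 over the chromosome. The cluster was above the chromosome and below the left flank, and its interval overlapped that of the right flank. In the 32 H3K4me3 bins of the chromosome 13 cluster the ratio was 1.29 (1.14 to 1.46), and in the 131 other readable bins 1.06 (0.993 to 1.13). In the left flank these ratios were 1.57 (1.30 to 1.90) and 1.23 (1.14 to 1.33). In the right flank they were 1.04 (0.922 to 1.17) and 1.06 (1.02 to 1.10). The cluster's interval for H3K4me3 bins overlapped those of both flanks. Single bins were picked for the highest and lowest ratios, so their opposite directions were fixed by that choice and are a description only. The bin chr13:67320001-67325000 had 26 reads in secondary MEF, against 10 in MEF, and chr13:68095001-68100000 had 17, against 6. In the other direction chr13:68345001-68350000 had 10 reads in secondary MEF, against 25 in MEF, and chr13:68030001-68035000 had 7, against 19. The libraries' two-location lines gave ratios of 1.04 (0.866 to 1.26) on chromosome 2 and 1.13 on chromosome 13.

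Repeated read positions bore most on H3K4me3. In the chromosome 13 window 97.8% of the single-location reads of secondary MEF H3K9me3 and 98.1% of those of MEF H3K9me3 were at distinct positions, against 93.8% for H3K27me3 and 85.0% for H3K4me3. With 1 read per position and strand the ratio of H3K9me3 to the mean of the other marks was 0.738 in secondary MEF and 0.661 in MEF.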

How the data were processed

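Chromatin immunoprecipitation libraries of 3 histone marks in MEF and of H3K9me3 in secondary MEF were sequenced, 1 library per group. The deposited files hold signed read positions (unit other) without normalisation. Reads had been aligned by the authors to mm8 with Bowtie (--best, --concise, -l 36, -n 2, -m 2, -k 2, -e 70), per the file headers, and its version is not given in the sources used here. Per the labels, chromatin averaged 500 bp and libraries were amplified over 18 PCR cycles.

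Positions were shifted 75 bp from the 5′ end, assuming reads of 36 bases, and counted in 5 kb bins with Python 3.11.15, NumPy 2.4.6 and SciPy 1.17.1. Intervals are exact Poisson for folds, Clopper-Pearson for ratios and shares, and a log-scale normal approximation of the counting error for ratios to the mean of both other marks. The rules were tested on simulated data. Bins were named by rank, highest or lowest 3 to 5 per library, ratio or two-location count. The windows, lists and thresholds were chosen with earlier results of these data known. Alternatives covered one read per position, two-location lines at a weight of 0.5, chromosome scaling, flanks, bin width, a stricter call, minimum reads, bins high in all 4 libraries, and library means without chromosomes 12, X and Y. Leaving out bins called for H3K4me3 was added after seeing the data. Input libraries and an mm8 annotation were not used here, and promoter sequences are RefSeq's for GRCm38.p6.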

Additional observations from a re-analysis of the deposited data

How the results depend on the processing

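Of 78 alternative values for 14 results, 51 kept their direction and moved by less than the counting interval. With two-location lines at a weight of 0.5, the chromosome 2 level over its flanks moved to 0.0547 for secondary MEF H3K9me3 and 0.0604 for MEF H3K9me3, the chromosome 13 level to 0.774 and 0.772, and MEF H3K9me3 over the other marks on chromosome 2 to 1.88. In bins of at least 20 reads the chromosome 2 levels were 0.0313 and 0.150, the secondary MEF over MEF ratio there 0.248, and H3K9me3 over the other marks turned to 0.0829 and 0.334, a direction fixed by the filter, since the 2 bins pass it only through H3K4me3. On chromosome 13 the same bins gave 0.761 and 0.755 for the level and 0.654 and 0.590 over the other marks. Flanks of 1 Mb turned the chromosome 13 level to 1.23 and 1.16. Without bins called for H3K4me3, H3K9me3 over the other marks was 2.33 and 1.88 on chromosome 2, where 58 of 130 H3K4me3 reads are left out, and turned to 2.13 and 1.98 on chromosome 13, where 87.3% are left out by construction. The secondary MEF level on chromosome 13 was 0.640. One read per position gave 0.738 and 0.661, and chromosome scaling 0.661 and 0.568, for H3K9me3 over the other marks on chromosome 13. The share of chromosome 13 bins called for secondary MEF H3K9me3 was 0.313% under the stricter call and 0.325% in 1 kb bins. The cause of the other moves was not tested. No paired analysis was possible because each group had 1 library and the labels give no replicate numbers. The chromosome 2 values rest on 38 to 130 reads per library.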
